A study of Schizosaccharomyces pombe with 3 samples.

Results

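The genes described are those for proteins of the small (40S) subunit of the cytosolic ribosome and for the stalk of the large subunit in fission yeast, Schizosaccharomyces pombe. They were chosen by name: a lower-case platform symbol of rps or rpp followed by a number. This gave 52 of the 2896 fission yeast genes that could be named on the array, 45 rps and 7 rpp genes, read by 53 probe sets. All 52 symbols were unchanged in a current RefSeq gene table, which lists every one as protein coding but gives no product, so the label was checked by name only. Another 10 rps symbols of that table were not analysed here as genes of their own.

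Total RNA came from wild type cells in liquid YEA, a rich medium, at 30 degrees, and was hybridised to 3 arrays that form 1 group. All samples share 1 genotype label: the plus mating type, h+, the leucine marker leu1-32, the adenine marker ade6-210 and the uracil marker ura4-DS/E. Nothing in the labels says whether the arrays represent separate cultures, and spreads between them may be technical. Signal is the deposited MAS5 intensity, log2 means take base-2 logarithms of it, and ± is the SD of log2 signal over the 3 arrays.

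Each small subunit carries 1 copy of a set of proteins that fold around the 18S ribosomal RNA, hold the mRNA and read its codons against the tRNAs. The stalk is a flexible arm of the large subunit: the protein P0 anchors it to the ribosomal RNA and binds dimers of the acidic proteins P1 and P2, whose tails recruit the translation elongation factors. Growing yeasts devote much of their transcription to such genes. In fission yeast many of them are present as paralogues, recognisable by their names: the last 2 digits of a longer number give the copy, so rps1401 and rps1402 are copies of the gene for protein S14. A bare number counts as the lower copy where a numbered one exists beside it, as for rps23 and rps2302. By this reading 16 proteins had 2 measured copies, 3 had 3 measured copies and 11 had 1.

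The small-subunit and stalk genes were among the brightest named genes on the arrays. Their log2 means ran from 9.21 to 10.87 with a median of 10.23, a signal of 1200, against a median of 8.22, a signal of 298, over all 2896 genes. The middle 50% of the 52 genes lay between 10.05 and 10.38. The spread between genes was narrow, with an SD of 0.29 for the members against 1.69 for all genes. It was not particular to the members: the 67 large-subunit ribosomal protein genes had an SD of 0.32. The brightest member had 3.17 times the signal of the dimmest, and among the large-subunit genes this was 2.94 times. In the top 10% of mean signal lay 48 of the 52, where 9.98% of all genes lie by construction, and in the top 5% lay 36, where 4.97% of all genes lie. The 4 outside the top 10% were rps1601, rps1602, rps2602 and rps1401. All 52 were above background, the 95th percentile of probe sets for another yeast on the same array, by limma over all genes (largest adjusted p among them = 2.5e-13), but so were 99.9% of all genes tested, which leaves this call without contrast. Members exceeded the limit by 8.94 to 10.60 on the log2 scale.

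**Figure D1:**
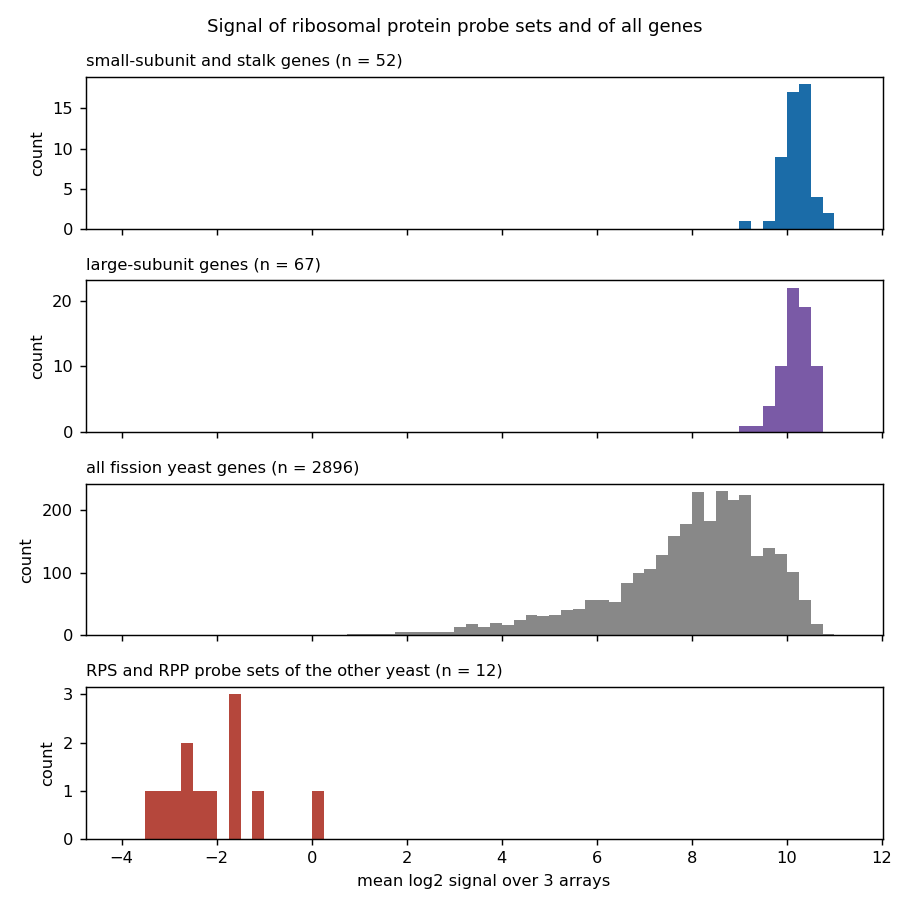
Histograms of mean log2 signal over 3 arrays (horizontal axis) with the number of genes or probe sets per bin (vertical axis) for small-subunit and stalk genes, large-subunit genes, all fission yeast genes and RPS or RPP probe sets of a second yeast. The 52 members span 9.21 to 10.87, the 67 large-subunit genes 9.15 to 10.70, and the 12 second-yeast probe sets lie at or under 0.06.

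The brightness of a probe set depends on its sequence as well as on the transcript. Differences between genes below are differences in probe-set signal and do not tell which gene has more mRNA. The files hold neither probe sequences nor a saturation flag, so reading of a copy's RNA by its paralogue's probes was not tested.

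Stalk genes covered 0.94 of the members' range of 1.66 on the log2 scale. The gene rpp0, for the anchor protein P0, gave signals of 1338, 1505 and 1422 on arrays 1, 2 and 3, a log2 mean of 10.47 ± 0.08. Its lowest value was on array 1 and its highest on array 2, unlike most members.

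The 3 genes for P1 had similar signals. rpp101 gave 974, 952 and 1008, rpp102 gave 1029, 1023 and 1045, and rpp103 gave 1120, 1116 and 1167. Their order, rpp103 over rpp102 over rpp101, was the same on each array and their values did not overlap. The steps were small: rpp101 minus rpp102 was -0.08 ± 0.03 and rpp102 minus rpp103 was -0.14 ± 0.02 on the log2 scale.

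The 3 genes for P2 lay further apart than those for P1, and they include the largest paralogue difference among the members. rpp201 gave signals of 929, 888 and 887, and its log2 mean of 9.82 ± 0.04 was the lowest of the stalk genes. rpp202 gave 1699, 1695 and 1806, a log2 mean of 10.76 ± 0.05, and ranked 2nd of all 2896 genes. rpp203 gave 1397, 1448 and 1443. No value of one P2 gene overlapped with those of another. On the log2 scale rpp201 minus rpp202 was -0.87, -0.93 and -1.03 on the 3 arrays (-0.94 ± 0.08), rpp201 minus rpp203 was -0.67 ± 0.07, and rpp202 minus rpp203 was 0.28 ± 0.05.

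The brightest small-subunit genes were the paralogues rps001 and rps002, for the protein whose human relative RPSA is also known as the laminin receptor. rps001 gave signals of 1878, 1896 and 1854 and had the highest mean of the 2896 named genes, 10.87 ± 0.02. The highest probe-set signal on arrays 1, 2 and 3 was 2363, 2353 and 2495. Probe sets not assigned to the named genes were not ranked. rps002 gave 1566, 1517 and 1585. The values of rps001 lay above those of rps002 on every array, by 0.27 ± 0.05 on the log2 scale. Next came rps2802, one of a pair of genes for the small protein S28, with 1529, 1518 and 1564, and rps102, for S1 (S3a in mammals), with 1508, 1432 and 1557.

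The dimmest members were copies of genes for S14, S16 and S26, proteins of the platform and head of the subunit. rps1401, for S14, stood apart from the rest, with signals of 584, 590 and 603 (9.21 ± 0.02). The next lowest, rps2602, gave 840, 836 and 877 (9.73 ± 0.04). Between these 2 genes lay the widest gap in the members' order. The S16 gene rps1601 gave 889, 832 and 911. Its copy rps1602 gave 884, 868 and 864. rps1402, the other S14 gene, gave 847, 845 and 977 (9.79 ± 0.12), and its value on array 3 was well over the other two. The values of rps1602 lay within the range of those of rps1601, and rps1402 overlapped with both, so this part of the order was not larger than the spread between arrays.

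Genes for S3, S2 and S23, picked after their values were seen, are given as examples from the upper and middle part of the range. rps3, whose protein lines the mRNA entry, gave 1432, 1414 and 1535. rps2, for a neighbour of S3 known to affect reading accuracy, gave 1375, 1300 and 1315. For S23, a protein next to the decoding centre, rps23 gave 1190, 1217 and 1307. Its copy rps2302 gave 1290, 1288 and 1366. These 2 copies overlapped, although rps23 was the lower on each array (rps23 minus rps2302, -0.09 ± 0.03).

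Genes for the protein S6, the classical substrate of S6 kinases, were as close as any pair. rps601 gave 1312, 1318 and 1431 and rps602 gave 1323, 1346 and 1391. Neither was higher on all arrays, and rps601 minus rps602 was -0.001 ± 0.04 on the log2 scale.

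The genes with 1 measured copy had a median of 10.31 (n = 11, from 9.94 to 10.51), and the 41 genes of families with 2 or 3 measured copies had one of 10.20 (from 9.21 to 10.87). The range of the first set lay wholly inside that of the second, and no test was made. Among genes with 1 measured copy, rps29, for a zinc-binding protein of the head, was lowest with 944, 978 and 1034, and rps3 was highest. Between these extremes lay rps7, rps13, rps20, rps21, rps27, rps2202, rps3002, rps2 and rpp0. A single measured copy is not a single-copy gene: rps2202 and rps3002 have partners, rps2201 and rps3001, that the annotation names only on shared probe sets. By the annotation rps3002 had 2 probe sets of its own, with log2 means of 10.09 and 10.10. They differed by far less than the limit of 1 set for disagreement. The first has the suffix _x_at, a class left out under an alternative setting, and its reading of other transcripts was not tested.

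**Figure D2:**
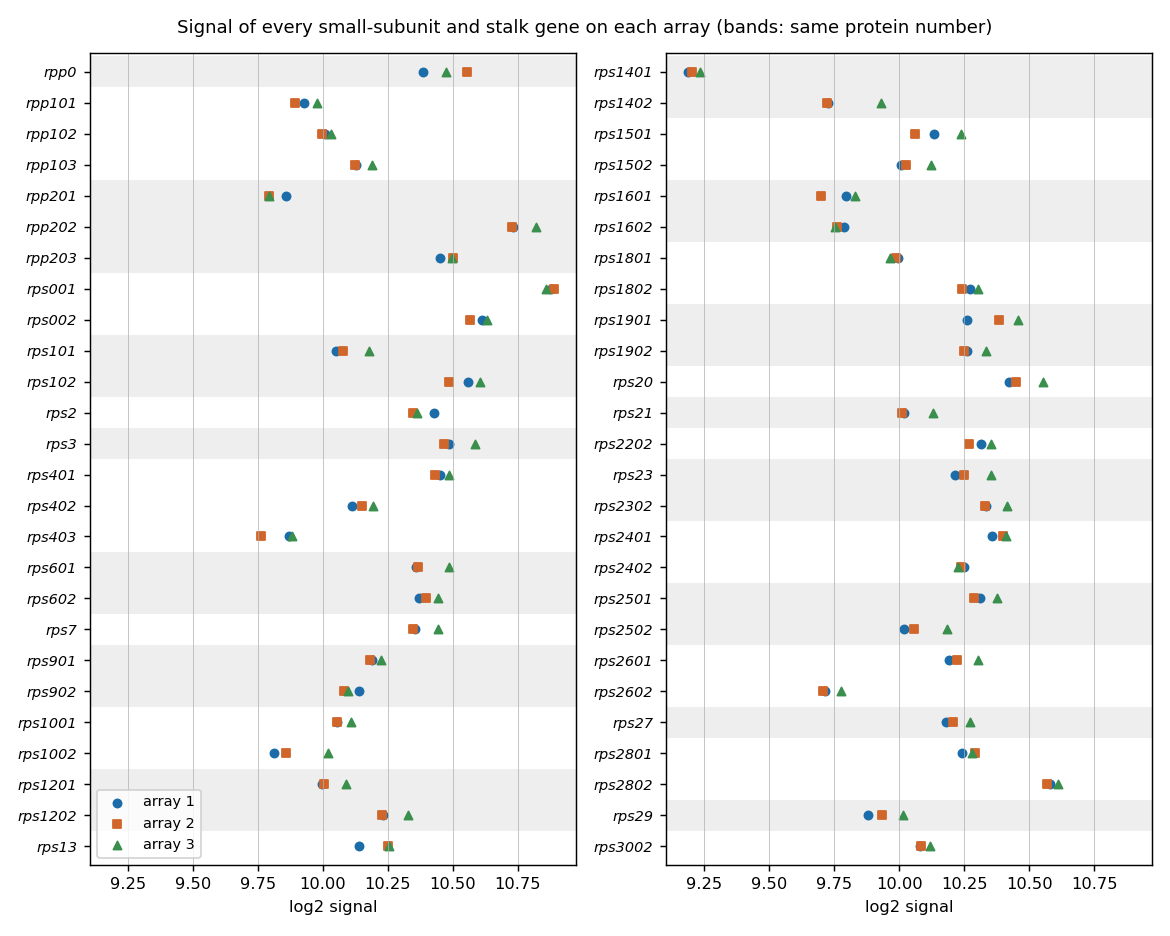
Log2 signal (horizontal axis) of each of the 52 genes on array 1 (circles), array 2 (squares) and array 3 (triangles). Grey and white bands group genes with the same protein number, rps1401 is the leftmost gene at 9.21, and rps001 and rpp202 are the rightmost at 10.87 and 10.76.

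Paralogues with the same protein number were compared within each array, lower copy number minus higher. The 25 pairs from 19 families had a median absolute difference of 0.24 on the log2 scale, a 1.18-fold difference in signal, and the largest was 0.94. For 5 pairs it was over 0.5: both pairs of rpp201 with another P2 gene, rps401 with rps403, rps1401 with rps1402, and rps2601 with rps2602. Among 29 pairs of large-subunit genes 34.5% were over 0.5 apart, and no test was made of that contrast. They were read the same way, except that rpl8 (a bare number beside rpl801) and rpl35A01 were taken as other proteins and not paired. Pairs of 1 family share a gene, so they are not independent. An exact sign-flip test over 3 arrays cannot give a two-sided p under 0.25, so each pair is described by its spread and was not tested.

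Most differences were larger than the spread between arrays. In 23 of the 25 pairs the same copy was the brighter on each array, and in 20 pairs the values of the copies did not overlap. Among the large-subunit pairs the copies kept their order in 100% and did not overlap in 86.2%, so a stable order was common to both. The SD of a difference had a median of 0.046 and a maximum of 0.098 over the 25 pairs. The lower copy number was the brighter in 13 of the 25 pairs, against 20 of the 29 large-subunit pairs.

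S4, a protein of the subunit body, had 3 measured genes that formed a graded series. rps401 gave signals of 1397, 1380 and 1431, rps402 gave 1107, 1136 and 1171, and rps403 gave 935, 869 and 944. Their values did not overlap. On the log2 scale rps401 exceeded rps402 by 0.30 ± 0.03 and rps403 by 0.62 ± 0.05, and rps402 exceeded rps403 by 0.31 ± 0.07.

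The S14 pair differed in the opposite sense. rps1401 minus rps1402 was -0.54 and -0.52 on arrays 1 and 2 and -0.70 on array 3 (-0.58 ± 0.10), and this was the least steady of the 25 differences. S26 sits at the mRNA exit channel, and its gene rps2601, with 1171, 1196 and 1262, exceeded rps2602 by 0.51 ± 0.02. Without array 3 that difference was 0.497 and with a pseudocount of 16 it was 0.499, so in both cases 4 pairs were over 0.5.

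Among the other pairs in which the higher copy number was the brighter were those for S1, S28, S18 and S12. rps101 gave 1060, 1080 and 1159, and rps101 minus rps102 was -0.45 ± 0.05. rps2801 gave 1212, 1253 and 1243, and rps2801 minus rps2802 was -0.31 ± 0.03. For S18, a protein of the head, rps1801 gave 1021, 1015 and 998 and rps1802 gave 1236, 1211 and 1264, a difference of -0.29 ± 0.04. None of these copies overlapped with its partner. For S12, rps1201 gave 1021, 1027 and 1088 and rps1202 gave 1202, 1197 and 1286, with no overlap and a difference of -0.23 ± 0.01.

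The pairs without a fixed order were those for S6 and S16. rps1601 minus rps1602 was 0.01, -0.06 and 0.08 on the 3 arrays (0.01 ± 0.07), so no difference was detectable at this spread. In all, 7 of the 25 pairs lay within 0.1, against 4 of the 29 large-subunit pairs, with no test. The 7 were the pairs for S6 and S16, rpp101 with rpp102, rps23 with rps2302, and the pairs for S9, S15 and S19. S9 acts in the accuracy of decoding, S15 in export of the pre-40S particle, and S19 is the protein whose human gene is often mutated in Diamond-Blackfan anaemia.

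**Figure D3:**
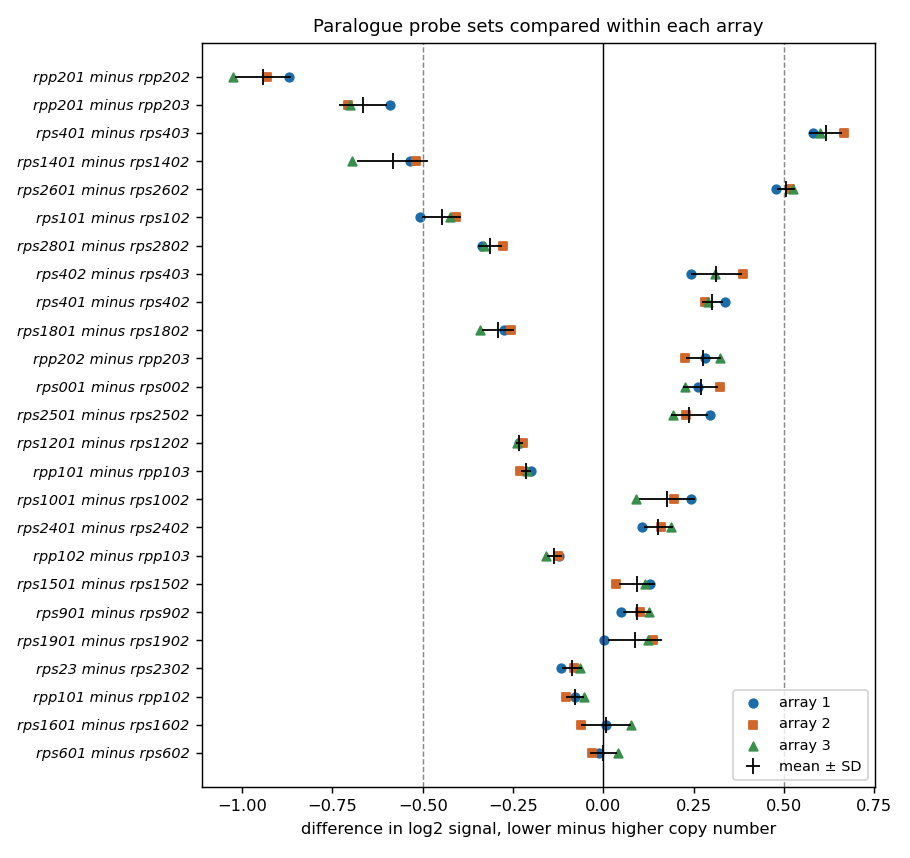
Difference in log2 signal between paralogues on each array (horizontal axis, lower minus higher copy number) for 25 pairs, ordered by the size of the mean, with black bars for mean ± SD (n = 3 arrays) and dashed lines at 0.5 on either side. The pair rpp201 and rpp202 lies farthest from 0 at -0.94, and the pairs for S16 and S6 straddle 0.

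Between arrays the members moved little. Their SDs ran from 0.013 to 0.120 with a median of 0.046. The median was 0.061 for all genes and 0.043 for 182 genes of the brightest 10% without an rps, rpp or rpl symbol. These 182 include the ubiquitin fusion genes ubi1, ubi2 and ubi3. The members' median SD was 0.019 without array 3, so array 3 set much of this spread. Across the 52 genes Pearson's r between 2 arrays was 0.977 to 0.986 and Spearman's rho 0.974 to 0.982. Both were higher over all genes, which span a wider range of signal: 0.995 to 0.996 and 0.995 to 0.997. These are correlations across genes, which share the arrays and are not independent replicates.

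The largest SDs belonged to rps1402, rps1002, rps1901, rps1501 and rps2502, and all 5 had their highest value on array 3. rps1002, for S10 of the subunit's head, gave 899, 928 and 1037 (9.90 ± 0.11), while its paralogue rps1001 gave 1064, 1062 and 1104. rps1901 gave 1228, 1338 and 1406, and on array 1, its lowest, it differed from rps1902 by only 0.002 on the log2 scale. rps1501 gave 1124, 1069 and 1208, and rps2502, for S25, gave 1036, 1067 and 1163. Array 3 alone stood out for rps1002 and rps2502, whereas rps1901 was spread over all 3 arrays.

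Array 3 was the highest of the arrays for 42 of the 52 members, where 39.4% of all genes were highest on it. The median over the members of the difference between array 3 and the mean of arrays 1 and 2 was 0.07 on the log2 scale, and 0.01 over all genes. Other bright genes did likewise: array 3 was highest for 49 of the 67 large-subunit genes, with a median of 0.06, and for 131 of the 182 other genes of the brightest 10%, with a median of 0.05. With quantile normalization, which gives the arrays one common distribution, the count for the members was 26 and their median 0.02. Under the same setting array 3 was highest for 41.2% of all genes, with a median of 0.01. It was highest for 26 of the 67 large-subunit genes and for 69 of the 182 other bright genes. The count for the members thus depended on the scaling.

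**Figure D4:**
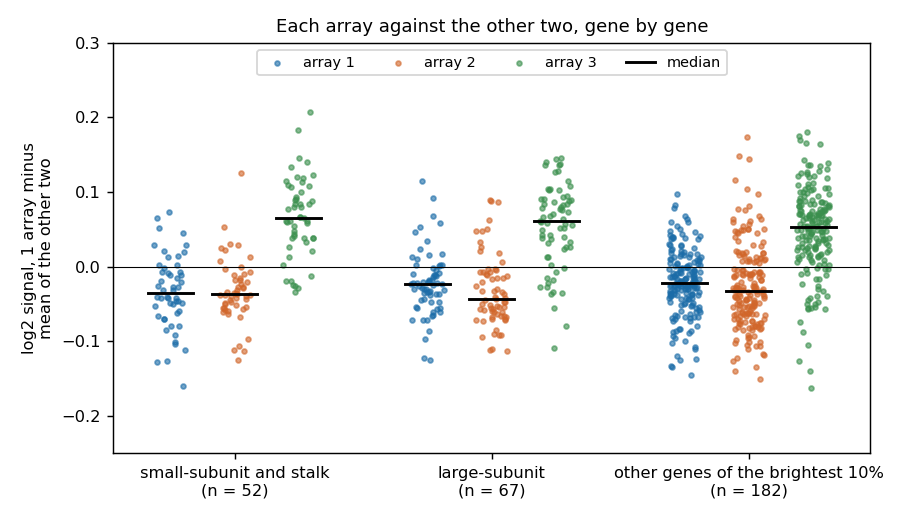
Log2 signal on each array less the average of the remaining arrays (vertical axis) for small-subunit and stalk genes, large-subunit genes and other genes of the brightest 10% (horizontal axis), with a point per gene and a black line at each median. For array 3 the medians are 0.07, 0.06 and 0.05.

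The members and the large-subunit genes had like medians. The members' median minus that of the 67 large-subunit genes was -0.03, 0.01 and -0.01 on the 3 arrays (-0.01 ± 0.02), a difference within the spread between arrays. In the top 10% lay 48 of the 52 members and 60 of the 67 large-subunit genes. The highest large-subunit genes were rpl2801 and rpl2301, at 10.70 ± 0.07 and 10.70 ± 0.01, and the lowest were rpl1603 and rpl3402, at 9.15 ± 0.02 and 9.26 ± 0.06. The median absolute paralogue difference was 0.24 for the members and 0.38 for the large-subunit genes, which was not tested.

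The measured genes listed as ubiquitin fusions, RACK1 homologue and elongation factors were also bright, and the listed kinase and regulator genes lay lower. All 3 measured ubiquitin fusion genes, which encode ubiquitin joined to a ribosomal protein, were in the top 10%, with ubi3 at 10.67 ± 0.03, ubi1 at 10.59 ± 0.07 and ubi2 at 9.94 ± 0.03. The gene for the RACK1 homologue that binds the head of the small subunit, cpc2, gave 10.67 ± 0.09. Of 6 listed elongation factor genes, tef3 at 10.35 ± 0.04 and tef101 at 10.25 ± 0.06 were measured, both in the top 10%.

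In contrast, none of the 3 kinase genes related to S6 kinase and none of the 3 genes listed as regulators was in the top 10%. All 6 were above background by limma. Whether they regulate the members was not tested. The kinase genes psk1, sck1 and sck2 gave 7.89 ± 0.11, 7.93 ± 0.05 and 3.26 ± 0.55. For sck2 the signal was 11.8, 12.1 and 6.16, lowest on array 3. The forkhead gene fhl1 gave 7.32 ± 0.03 and the zinc finger gene sfp1 gave 7.26 ± 0.07, both known in budding yeast for control of ribosomal protein genes. rrn7, named for an RNA polymerase I initiation factor, gave 8.83 ± 0.03. The median over all genes was 8.22, and of the 6 only rrn7 lay above it.

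Some members are neighbours in the genome. In the order of protein-coding genes of assembly ASM294v3, which served for gene order only, rps29 lay next to rps27, rps1402 next to rps1601 and rps2 next to rps20. In 4 more places a member lay next to a large-subunit gene: rps1602 by rpl13, rps403 by rpl2102, rps1402 by rpl701 and rps001 by rpl2701. The log2 means were 9.94 for rps29 and 10.22 for rps27, 9.79 for rps1402 and 9.78 for rps1601, and 10.38 for rps2 and 10.47 for rps20.

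The array also carries probe sets for a second yeast, with fully capitalised symbols, and these gave little signal. Of its 12 probe sets named RPS or RPP with a number, none was above the background limit on all arrays, where 0.769% of the 2601 probe sets of that yeast were. The limit was drawn from these same 2601 probe sets, so most of them lie under it by construction. Their log2 means ran from -3.35 to 0.06 with a median of -2.24. The 5 highest were RPS12, RPS13, RPS3, RPS9B and RPP1, the last of which in budding yeast names a subunit of ribonuclease P and not a stalk protein. RPS12 alone passed the limit anywhere, on array 3, with signals of 0.824, 0.678 and 2.02 on arrays 1, 2 and 3.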

How the data were processed

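RNA of 3 wild type samples was measured on 1 array each. The deposited values are linear intensities for each probe set, background-corrected by the authors with MAS5, per the labels. The scaling target and build are not given in the sources used here. Means trimmed by 2% at both ends were all 150.0, so log2 intensities were used with no normalization. No column was left aside.

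Of 10928 probe sets, the platform annotation gave 5518 a single gene and 20 several, which were not assigned. RefSeq ASM294v3 held the genes of 2914, averaged on the log2 scale to 2896 genes, and 2601 with capitalised symbols were taken as another yeast. The background limit, the 95th percentile of these, lay at 0.27, 0.31 and 0.24 on the 3 arrays.

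Log2 signal minus this limit was tested against 0 with limma 3.58.1 in R 4.3.3 (two-sided, Benjamini-Hochberg over 2896 genes, threshold 0.05), which was tested on simulated data. The number of arrays limits the precision. All else is description. Any member could be named; values by array were set for stalk genes, the extremes of signal and SD, and the farthest and closest pairs, and others were added after their values were seen. Members and lists were chosen with earlier results of these data known. The alternatives changed the pseudocount (to 16), the normalization, the arrays, the probe sets, the background limit, a filter on dim genes and the cut-offs.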

Additional observations from a re-analysis of the deposited data

Results flagged for a closer look

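Signal above the background limit was found in 3 probe sets that the comparisons did not use, because the annotation assigns each to a pair of genes. The probe set shared by rps2202 and rps2201 had a log2 mean of 10.17 ± 0.05, with signals of 1138, 1120 and 1196, against 10.31 ± 0.04 for the probe set named for rps2202 alone. The probe sets shared by rps3001 and rps3002 had log2 means of 9.98 ± 0.05 and 10.01 ± 0.04, against 10.09 ± 0.02 for rps3002 alone. All 3 were above the limit on all 3 arrays and within the range of the members. By limma 99.9% of all genes were above the limit too, so passing it does not set these probe sets apart. The part of each gene in a shared signal was not tested, and rps2201 and rps3001 have no value of their own.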

How the results depend on the processing

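Of 78 recomputed summary values, 71 stayed within 1.5 times the reported count or within the spread between arrays. Part of these had little or no room to move. The changes of probe sets repeated the reported value of each summary, and median centring cannot alter a paralogue difference. Above-background counts rest on a call that 99.9% of all genes pass. The tolerance was also wide: 36 members in the top 5% counted as staying beside 48 in the top 10%. The median SD of the members was 0.046 as reported, 0.059 with median centring, 0.031 with quantile normalization and 0.019 to 0.053 with 1 array left out, lowest without array 3. The count of members highest on array 3, added after the data were seen, was 26 with quantile normalization in place of 42. Of all genes, 41.2% were highest on array 3 with quantile normalization and 39.4% without it. With 1 array left out the median absolute paralogue difference ran from 0.231 to 0.254. Of the 25 pairs, 12 were apart by over 0.25 and 0 by over 1, against 21 and 2 of the 29 large-subunit pairs (counts with no test). The 52 members above background and the 48 in the top 10% were the same or within 1 under every alternative that kept these cut-offs. Of 200 recomputed pair differences, 3 changed sign, all in the pairs for S6 and S16, which had no fixed order. The 200 include settings that could not alter any pair. Median centring shifts all genes of an array alike, and the changes of probe sets touched no gene of a pair. No paired analysis was possible because there is only 1 group.

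The values came with no detection or saturation call, so how far the signal over background follows the transcript at this brightness was not tested. One group of 3 arrays allows no contrast of conditions.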
